A study of Mus musculus with 25 samples.

Results

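*Cdkn1a*, which encodes the CDK inhibitor p21, was examined in spinal cord cholinergic neurons together with 9 genes chosen because of what they could say about its rise, namely the related inhibitors *Cdkn1b* and *Cdkn1c*, the p53 gene *Trp53*, and the p53 targets *Mdm2*, *Ccng1*, *Bax*, *Gadd45a*, *Sesn1* and *Phlda3*. These 10 genes were taken by symbol from 50559 listed genes, and all 10 were among the 21738 with at least 10 counts summed over the libraries. The set was chosen by the genotype difference of *Cdkn1a* measured in these same libraries, so its genotype difference is described here without a p-value. The question was whether the other genes moved with it.

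mRNA bound to HA-tagged ribosomes was immunoprecipitated (IP) from whole spinal cords of 6-mo-old male C57BL/6J mice and sequenced. *ChAT-BKO* mice carried *ChAT-Cre*, 1 *RiboTag* fx allele and *Bmal1* fx/fx, and controls carried *ChAT-Cre* and 1 *RiboTag* fx allele, so that Cre and the tag were present in both. Each genotype was sampled at ZT8, in the light period, and at ZT20, in the dark period, with 6 mice in each of the 4 groups, and 1 input library pooled material of both genotypes. Cre driven by *ChAT* acts in every cholinergic neuron of the cord and not in motor neurons alone, and the IP recovers ribosome-bound mRNA of all these cells together, so fewer cells of a type and less RNA per cell cannot be told apart.

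p21, p27 (*Cdkn1b*) and p57 (*Cdkn1c*) are the CIP/KIP proteins, which bind cyclin and CDK complexes and hold dividing cells in G1. p53 is a transcription factor that is kept low by the ubiquitin ligase MDM2 and accumulates after DNA damage and other stress, when it binds a pair of short half-sites near its targets and raises a shared program that includes *Cdkn1a*, *Mdm2* itself, cell death genes such as *Bax*, and genes for growth arrest and repair. *Cdkn1a* can also be raised without p53, by FOXO, SMAD and KLF factors among others, and clock factors of the REV-ERB family have been linked to it. Adult neurons do not divide, and p21 is known in them as a gene induced by injury and stress.

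The 250 bases before the annotated starts of *Cdkn1a* are shown because they were searched for the letters that p53 and clock factors are known to bind, with 2 members that serve as comparisons, *Mdm2* and *Bax*. Sequences are from RefSeq on GRCm38.p6, read 5′ to 3′ on the strand of the gene, and 9 of the 10 genes matched an entry, all except *Cdkn1c*. Capitals mark a p53 half-site, a pair of adjacent half-sites with at most 1 of 20 letters off, or the E-box CACGTG.
Cdkn1a, upstream start, chr17:29090729-29090978, plus strand: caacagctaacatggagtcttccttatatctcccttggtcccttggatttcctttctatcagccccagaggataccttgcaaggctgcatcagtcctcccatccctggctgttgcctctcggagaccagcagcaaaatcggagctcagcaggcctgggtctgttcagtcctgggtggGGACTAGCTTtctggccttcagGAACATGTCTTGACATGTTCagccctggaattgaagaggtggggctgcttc
Cdkn1a, downstream start, chr17:29093519-29093768, plus strand: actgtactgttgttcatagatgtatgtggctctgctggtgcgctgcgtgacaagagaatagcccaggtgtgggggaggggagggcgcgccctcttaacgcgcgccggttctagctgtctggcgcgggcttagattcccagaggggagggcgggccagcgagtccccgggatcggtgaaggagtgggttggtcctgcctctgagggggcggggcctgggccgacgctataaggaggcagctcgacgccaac
Mdm2, chr10:117710759-117711008, minus strand: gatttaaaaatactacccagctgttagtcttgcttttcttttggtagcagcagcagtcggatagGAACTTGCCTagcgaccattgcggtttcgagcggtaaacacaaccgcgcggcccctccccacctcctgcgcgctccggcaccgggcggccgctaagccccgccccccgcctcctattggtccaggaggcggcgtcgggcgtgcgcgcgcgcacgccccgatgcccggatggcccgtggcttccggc
Bax, chr7:45466899-45467148, minus strand: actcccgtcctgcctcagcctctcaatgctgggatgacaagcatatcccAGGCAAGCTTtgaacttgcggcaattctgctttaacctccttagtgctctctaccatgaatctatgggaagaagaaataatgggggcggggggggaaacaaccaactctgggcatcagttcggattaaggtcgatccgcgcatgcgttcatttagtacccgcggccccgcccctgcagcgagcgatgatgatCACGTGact

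The upstream window of *Cdkn1a* holds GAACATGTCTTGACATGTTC, 51 to 32 bases before the start, which matches a pair of p53 half-sites in all but 1 letter. *Ccng1* holds the only other such pair among the members, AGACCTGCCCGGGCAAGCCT at 195 to 176 bases before its start, and 0.0762% of the 32817 RefSeq windows of this length hold one. A single half-site, also counted inside these pairs, was found in 7 of the 11 windows of the members, against 7.12% of all windows, and the genes were *Cdkn1a*, *Trp53*, *Mdm2*, *Ccng1*, *Bax*, *Gadd45a* and *Sesn1*. The E-box CACGTG, the letters that BMAL1 and CLOCK bind, occurred in the window of *Bax* alone and in 6.02% of all windows. AGGTCA, the core letters of REV-ERB sites, was present in 0 of the 11 windows and 14% of all, and TTATGTAA, a form of the D-box, in 0 of 11 and 0.817%. Both strands were searched. A match is a description of the letters, and sites farther away or in introns were not searched.

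Total counts ran from 4.04 to 31.7 M per library. *Bmal1*, listed as *Arntl*, checks the labels, and its log2 fold change was -1.64 (SE 0.16) at ZT8 and -2.08 (SE 0.16) at ZT20, from 8.44 ± 1.43 CPM (SD, n = 6) to 2.64 ± 0.54 CPM and from 8.73 ± 1.18 CPM to 1.93 ± 0.52 CPM. CPM are counts per M on library sizes scaled by TMM, and p-values here judge a group difference against the spread between libraries, each from 1 mouse. All 7 cholinergic neuron markers were above input, with a median log2 ratio of IP to input of 2.37, and all 37 markers of the other cell types were below it. Skeletal muscle markers summed to between 3.83 and 82.7 CPM in *ChAT-BKO* at ZT20 and to between 5.66 and 23.0 CPM in controls. Of the 8, *Acta1* and *Tnnt3* were called higher in *ChAT-BKO* at ZT20, where 0.23% of all genes were called. All 8 had a log2 fold change above 0, with a median of 2.16 and an unadjusted p under 0.05 for 7. Calls differed between settings at log2 fold changes of like size, with 2.04 and 2.26 for *Acta1* and *Tnnt3* by DESeq2 (adjusted p = 0.128 and 0.0849). The replicate block also called *Ckm*, *Myh1*, *Myh4* and *Tnni2*.

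*Cdkn1a* was higher in every *ChAT-BKO* library than in every control library. In controls at ZT8 the 6 libraries held 3.36, 2.33, 4.25, 3.69, 2.18 and 3.13 CPM, from 15 to 68 counts each. In *ChAT-BKO* neurons at ZT8 they held 13.0, 13.1, 15.4, 11.4, 12.7 and 14.8 CPM. All 6 *ChAT-BKO* libraries stood above all 6 controls, with no overlap.
At ZT20 the control libraries held 6.90, 5.62, 7.70, 4.37, 3.83 and 6.86 CPM of *Cdkn1a*, and the *ChAT-BKO* libraries 18.6, 18.2, 16.7, 23.0, 20.6 and 23.0 CPM. Again the groups did not overlap, and each *ChAT-BKO* library at ZT8 was also above each control library at ZT20. The group means were 3.15 ± 0.796 and 13.4 ± 1.48 CPM (SD, n = 6) at ZT8 and 5.88 ± 1.54 and 20.0 ± 2.62 CPM at ZT20. The log2 fold change of *ChAT-BKO* over control was 2.10 (SE 0.14), or 4.28-fold, at ZT8 and 1.77 (SE 0.15), or 3.42-fold, at ZT20. Among the 13721 genes with a mean of at least 1 CPM it was the 3rd highest fold change at ZT8 and the 16th highest at ZT20. In these contrasts 0.396% and 0.359% of all genes tested had every *ChAT-BKO* library above every control, and nothing is read from this for *Cdkn1a*, since the contrast chose it. The gene lies on mm10 at chr17:29090976-29100727 on the plus strand and is overlapped by the model AC167363.2 on the other strand, whose reads cannot be told apart if strand was ignored in counting, which is not stated in the sources used here. The *ChAT-BKO* libraries at ZT20, in the same order as above, had muscle marker sums of 79.3, 40.5, 76.2, 3.83, 33.9 and 82.7 CPM. The part of muscle RNA in the *Cdkn1a* level was not tested.

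**Figure D1:**
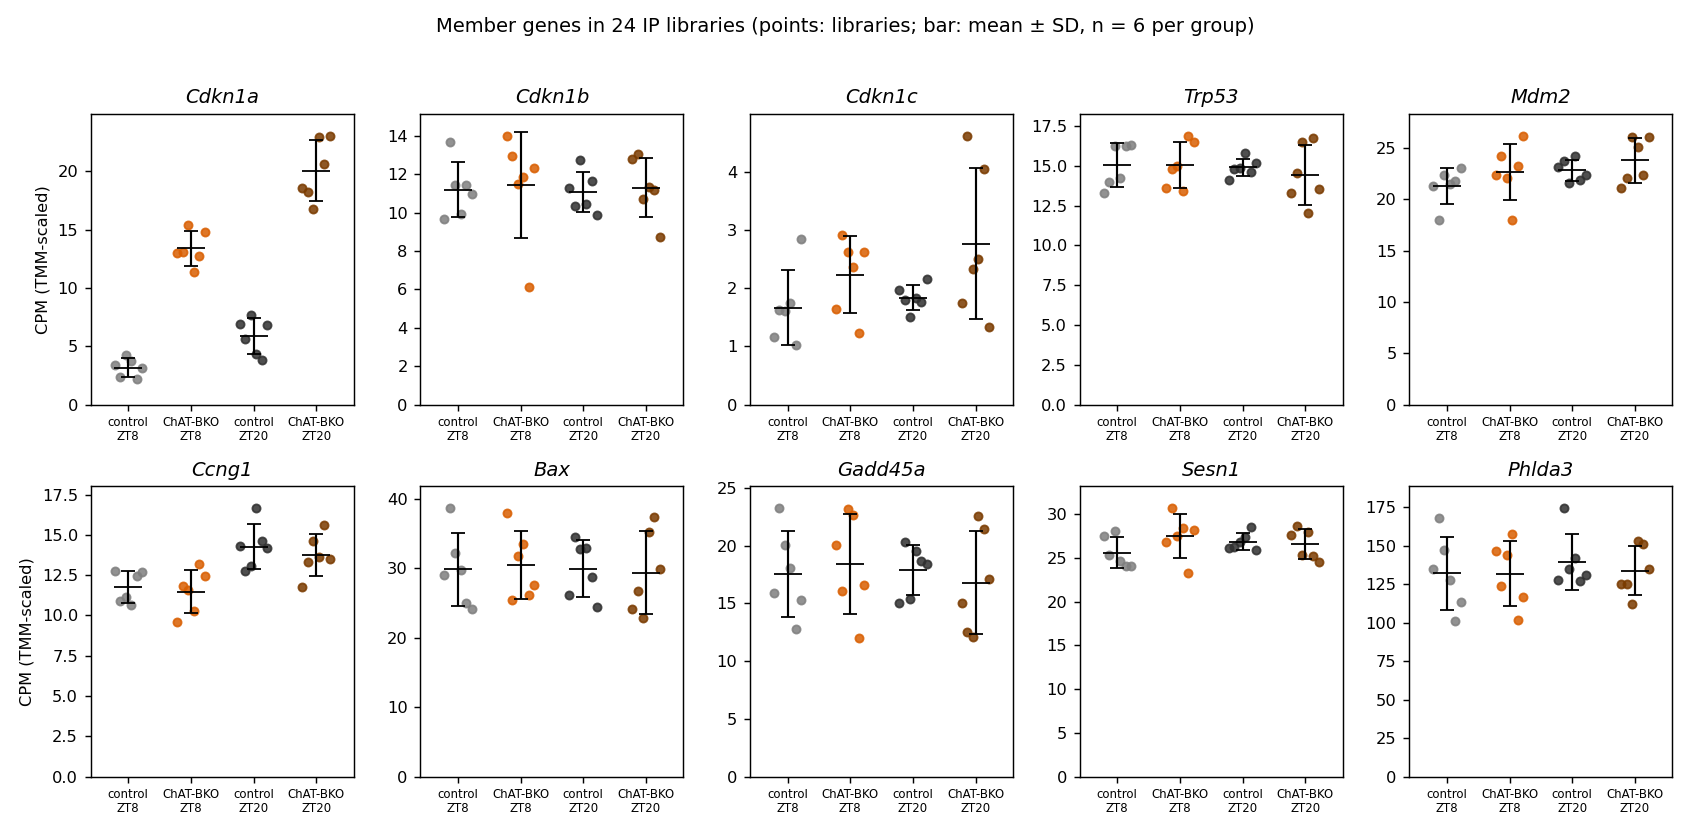
CPM of the 10 genes in the 24 IP libraries by group, with points for libraries and bars for the mean ± SD (n = 6), each panel starting at 0. Only the *Cdkn1a* panel separates the genotypes, from 2.18 to 7.70 CPM in controls and from 11.4 to 23.0 CPM in *ChAT-BKO*, and *Cdkn1c* spreads widely at its low level.

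*Cdkn1a* also had a higher mean at ZT20 than at ZT8 in both genotypes. The choice of genes did not rest on this contrast, though earlier results of these data were known when it was made. In *ChAT-BKO* neurons the log2 fold change of ZT20 over ZT8 was 0.56 (SE 0.10, adjusted p = 0.0160 from edgeR), with all 6 libraries at ZT20 above all 6 at ZT8, as had 0.676% of all genes. It was the 1 member of 10 called in this contrast, where 0.285% of all genes were called. Without *ChAT-BKO* ZT8 replicate 1 the log2 fold change was 0.55 and the adjusted p 0.0519, just past the threshold. In controls the log2 fold change was larger, 0.89 (SE 0.20, 95% interval 0.47 to 1.31), with 5 of 6 libraries at ZT20 above all at ZT8. The adjusted p there was 0.126, and 0 of the 10 members were called where 0.115% of all genes were called. DESeq2 gave an adjusted p of 0.00918, edgeR with the replicate number as a block 0.00527, and edgeR fitted on all 24 libraries 0.0233, each of which passes the threshold of 0.05. It was not passed by limma voom, nor by edgeR with the DESeq2 size factors, with no count filter or with filterByExpr. Over all alternatives the adjusted p ran from 0.00527 to 0.29, and the log2 fold change was at least 0.74. Without control ZT20 replicate 5 the adjusted p was 0.0418, and that library held the lowest level of its group at 3.83 CPM. Endothelial marker sums were also higher at ZT20, with medians of 11.4 and 15.6 CPM at ZT8 and ZT20 in controls and of 10.7 and 13.6 CPM in *ChAT-BKO*. Fibroblast medians went from 17.5 to 25.1 CPM in controls and from 22.2 to 22.8 CPM in *ChAT-BKO*, and muscle markers had a median log2 fold change with time of -1.42 in controls and 0.68 in *ChAT-BKO*. The part of these cells in the time effect was not tested.

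Whether the effect of genotype on *Cdkn1a* differed between the time points was tested by the difference of the 2 effects, ZT20 minus ZT8. This was -0.31 on the log2 scale (SE 0.22, 95% interval -0.77 to 0.14, adjusted p = 1), so a change of the *ChAT-BKO* effect between the time points was not detected, within an interval from -41.2% to 10.0%. 0 of the 10 members and 0% of all genes were called for this difference by edgeR, where 848 genes had an unadjusted p under 0.05, and DESeq2 and limma voom also called 0. The fitted time effects had the same sign, 1.47-fold in *ChAT-BKO* and 1.85-fold in controls.

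The other CIP/KIP genes did not pass the test. *Cdkn1b*, the p27 gene, was at 11.2 ± 1.42 and 11.5 ± 2.76 CPM in controls and *ChAT-BKO* at ZT8 and at 11.1 ± 1.05 and 11.3 ± 1.56 CPM at ZT20 (SD, n = 6), and the libraries of the genotypes overlapped at both times. Its log2 fold change over both time points was 0.06 (95% interval -0.11 to 0.23, adjusted p = 0.965 from edgeR), an interval that reaches 17.5% higher.

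*Cdkn1c*, the p57 gene, came nearest to *Cdkn1a* in direction, at a level close to the limit of these libraries. Its counts ran from 5 to 56 per library. In controls at ZT8 the libraries held 1.16, 1.63, 1.61, 1.74, 1.02 and 2.84 CPM, and in *ChAT-BKO* 1.65, 2.92, 2.62, 2.37, 1.22 and 2.63 CPM. At ZT20 the controls held 1.96, 1.79, 1.502, 1.83, 1.77 and 2.15 CPM, and *ChAT-BKO* 1.75, 4.62, 2.32, 2.51, 4.05 and 1.33 CPM. The genotypes overlapped at both times, and at ZT20 4 of the 6 *ChAT-BKO* libraries stood above all controls while 1 stood below them all. The log2 fold change was 0.45 (SE 0.24, adjusted p = 1) at ZT8, 0.52 (SE 0.25, adjusted p = 0.783) at ZT20 and 0.49 (SE 0.17, 95% interval 0.14 to 0.85, adjusted p = 0.335) over both, so that its interval lies above 0 before adjustment and the gene fails the correction over all genes. *Cdkn1c* lies 30.3 Mb from *Bmal1* on chromosome 7, at chr7:143458339-143461050 on the minus strand, and Gm44732 overlaps it on the other strand.

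*Trp53* differed by less than its spread between libraries. Its means were 15.1 ± 1.37, 15.0 ± 1.43, 14.9 ± 0.564 and 14.4 ± 1.89 CPM (SD, n = 6) in controls and *ChAT-BKO* at ZT8 and then at ZT20, and every pair of groups overlapped. Over both time points the log2 fold change with genotype was -0.02 (95% interval -0.14 to 0.10, adjusted p = 1 from edgeR), a range from -9.34% to 6.9%. The measurement is of mRNA, while p53 is known to be regulated mainly through the stability of its protein, which was not measured here. A processed copy, *Trp53-ps*, has a row of its own in the counts.

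*Mdm2*, the ligase that p53 induces and that returns it to low levels, was examined as a target of p53 that also limits it. It was at 21.3 ± 1.76 and 22.7 ± 2.74 CPM in controls and *ChAT-BKO* at ZT8 and at 22.8 ± 1.05 and 23.8 ± 2.21 CPM at ZT20 (SD, n = 6), with overlap at both. The log2 fold change over both was 0.08 (SE 0.06, 95% interval -0.04 to 0.19, adjusted p = 0.888), so a rise above 14.2% lies outside the interval.

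*Ccng1*, cyclin G1, a p53 target that acts with MDM2, did not pass the test with genotype, with a log2 fold change of -0.05 (95% interval -0.18 to 0.07, adjusted p = 0.952) over both time points. With time its values leaned the same way in both genotypes. It was at 11.8 ± 0.987 CPM at ZT8 and 14.3 ± 1.39 CPM at ZT20 in controls and at 11.5 ± 1.35 and 13.7 ± 1.29 CPM in *ChAT-BKO* (SD, n = 6). The 6 control libraries at ZT20 all lay above those at ZT8, though only just, since the lowest at ZT20 held 12.79 CPM and the highest at ZT8 held 12.78 CPM, and 5 of 6 did so in *ChAT-BKO*. Of all genes, 0.589% had every control library at ZT20 above every one at ZT8. The log2 fold change was 0.29 (SE 0.09, adjusted p = 0.317) in controls and 0.26 (SE 0.10, adjusted p = 0.366) in *ChAT-BKO*, and both fail the correction.

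*Bax*, which permeabilizes the outer mitochondrial membrane in apoptosis, was at 29.8 ± 5.30 and 30.4 ± 4.87 CPM at ZT8 and at 29.9 ± 4.09 and 29.4 ± 5.95 CPM at ZT20 (SD, n = 6, controls first). Its log2 fold change over both time points was -0.01 (95% interval -0.19 to 0.17, adjusted p = 1). *Gadd45a*, a stress sensor that binds PCNA and p21 itself, was at 17.6 ± 3.74 and 18.4 ± 4.33 CPM at ZT8 and 17.9 ± 2.19 and 16.8 ± 4.44 CPM at ZT20, a log2 fold change of -0.02 (95% interval -0.25 to 0.20, adjusted p = 1) over both. It has the widest interval of the 6 targets, and it is the 1 member of 10 with expected counts that were not whole, with E230016M11Rik overlapping it on the other strand. *Bax* is overlapped on its own strand by Gm45808.

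*Sesn1*, a sestrin that restrains mTORC1 under stress, was at 25.6 ± 1.76 and 27.5 ± 2.47 CPM at ZT8 and 26.9 ± 0.972 and 26.6 ± 1.71 CPM at ZT20 (SD, n = 6, controls first). Its log2 fold change was 0.13 (SE 0.07, adjusted p = 1) at ZT8 and -0.02 (adjusted p = 0.978) at ZT20. *Phlda3*, a p53-induced inhibitor of AKT, was the most abundant member per kb of transcript, at 132 ± 23.8 and 132 ± 21.2 CPM at ZT8 and 139 ± 18.1 and 134 ± 15.9 CPM at ZT20. Its log2 fold change over both was -0.03 (95% interval -0.19 to 0.12, adjusted p = 0.988), on 416 to 4024 counts per library.

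Of the 10 members, then, 1 was called with genotype at ZT8, where 0.184% of all genes were called, 1 at ZT20, where 0.23% were, and 1 over both time points, where 0.741% were, and each time it was *Cdkn1a*, the gene the choice rested on. The other 9 had a median log2 fold change of 0.08 at ZT8, -0.05 at ZT20 and -0.01 over both, beside medians of 0.00013, -0.0065 and -0.0012 over all genes tested. Over both time points the intervals of the 8 members other than *Cdkn1a* and *Cdkn1c* lay between -15.7% and 17.5%.

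**Figure D2:**
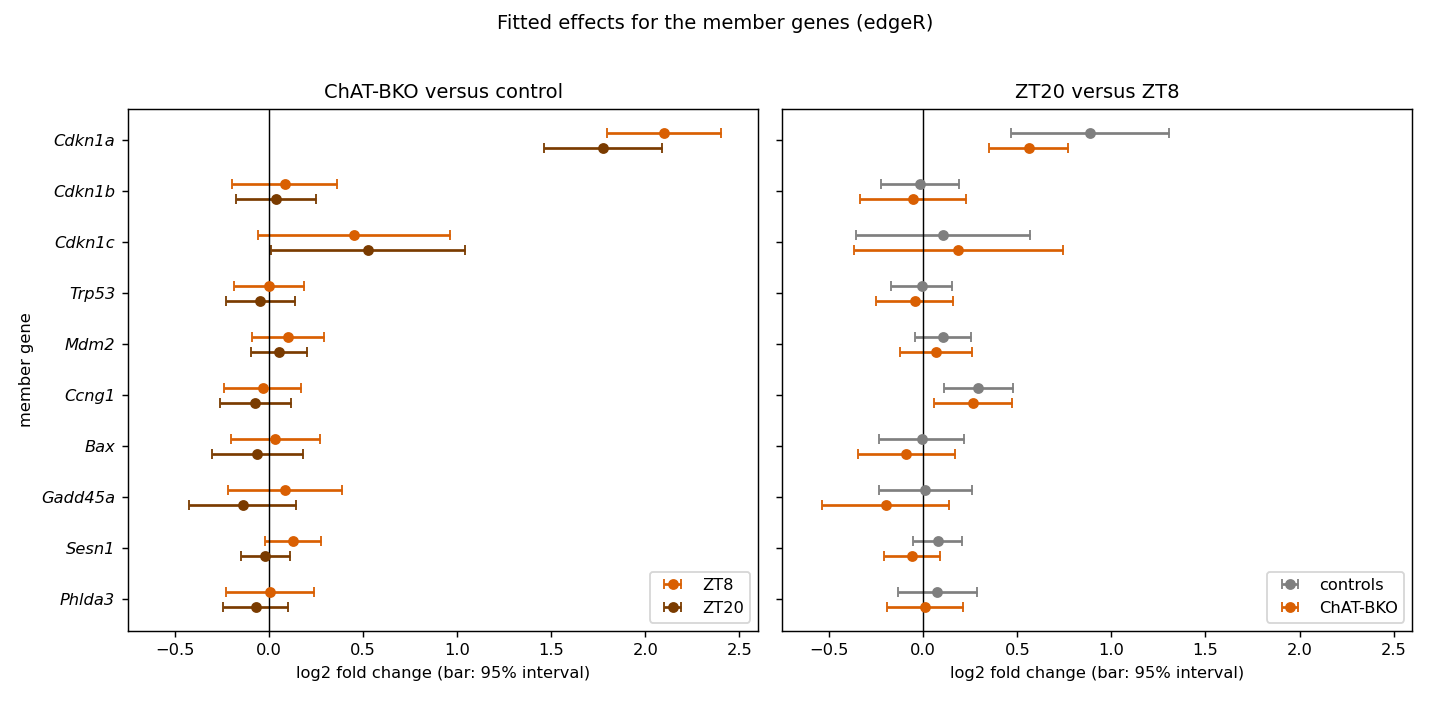
Log2 fold changes of the 10 genes from edgeR with 95% intervals, *ChAT-BKO* over control at ZT8 and ZT20 on the left and ZT20 over ZT8 in each genotype on the right. *Cdkn1a* stands at 2.10 and 1.77 on the left while 8 of the other members lie between -0.14 and 0.13, and on the right *Cdkn1a* (0.89 and 0.56) and *Ccng1* (0.29 and 0.26) lie to the right of 0.

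Levels per kb of transcript put *Cdkn1a* near the bottom of the set in controls and in its middle in *ChAT-BKO*. In controls at ZT8 the order was *Phlda3* at 84.8 ± 15.3 CPM per kb, *Bax* at 18.9 ± 3.36, *Gadd45a* at 9.95 ± 2.12, *Sesn1* at 6.44 ± 0.442, *Mdm2* at 4.20 ± 0.347, *Trp53* at 3.72 ± 0.339, *Ccng1* at 3.35 ± 0.281, *Cdkn1b* at 2.46 ± 0.313, *Cdkn1a* at 0.888 ± 0.224 and *Cdkn1c* at 0.817 ± 0.316 CPM per kb (SD, n = 6). The neighbours *Mdm2* and *Trp53*, *Trp53* and *Ccng1*, and *Cdkn1a* and *Cdkn1c* had overlapping ranges of mean ± SD. In *ChAT-BKO* at ZT20 *Cdkn1a* was at 5.64 ± 0.737 CPM per kb, between *Sesn1* at 6.68 ± 0.430 and *Mdm2* at 4.68 ± 0.434 CPM per kb.

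*Cdkn1a* was less abundant in every group of IP libraries than in the whole cord. The input held 36.5 CPM, from 270 counts, against 3.13 CPM in controls at ZT8 on unscaled library sizes, a log2 ratio of IP to input of -3.54. The ratio was -1.45 in *ChAT-BKO* at ZT8, -2.63 in controls at ZT20 and -0.86 in *ChAT-BKO* at ZT20. There is 1 input library and it pools both genotypes, so no test was made and the genotype difference in the whole cord was not analysed here. Across all IP libraries the log2 ratio was -1.89 for *Cdkn1b*, -2.84 for *Cdkn1c*, -1.75 for *Ccng1*, -0.73 for *Mdm2*, -0.65 for *Trp53* and -0.48 for *Sesn1*, and it was above 0 for *Bax* (0.14), *Phlda3* (0.38) and *Gadd45a* (0.57). The median over the 15437 genes at 1 CPM or more in the input was -0.56. Marker lists of other cells had medians of -4.44 (astrocyte), -4.3 (microglia), -4.02 (fibroblast), -4.0 (endothelial), -3.64 (oligodendrocyte) and -2.06 (skeletal muscle). The ratio of *Cdkn1a* in controls at ZT8 is close to several of these. How much of its level came from RNA of other cells was not tested.

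**Figure D3:**
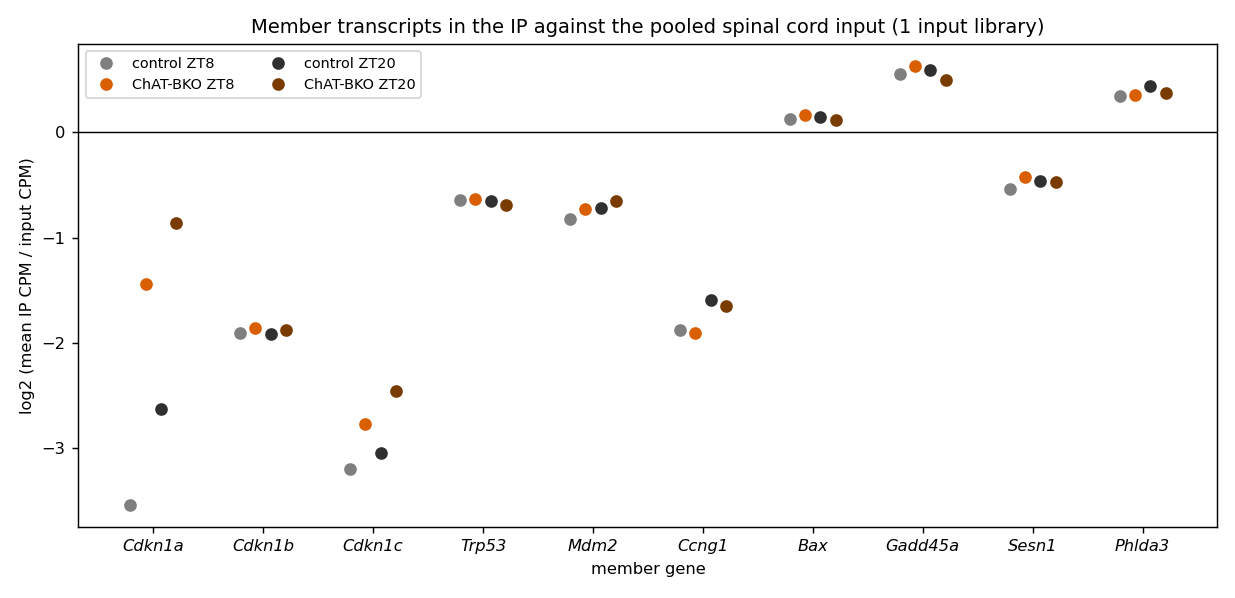
Log2 ratio of mean IP CPM to input CPM for each gene, with 1 point per group and a line at 0 for equal levels. The 4 points of *Cdkn1a* spread from -3.54 to -0.86, while those of *Bax*, *Gadd45a* and *Phlda3* lie above 0.

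Markers of other cells of the cord were summed beside *Cdkn1a*. Astrocyte markers summed to 194 ± 19.9 and 197 ± 22.4 CPM in controls and *ChAT-BKO* at ZT8 and to 198 ± 15.3 and 214 ± 33.3 CPM at ZT20 (SD, n = 6), against 3633 CPM in the input. Oligodendrocyte markers summed to 1840 ± 99.8 and 1902 ± 240 CPM at ZT8 and 1925 ± 195 and 1980 ± 280 CPM at ZT20, microglia markers to 12.2 ± 1.78, 13.1 ± 1.36, 12.2 ± 1.42 and 12.5 ± 2.46 CPM, endothelial markers to 11.2 ± 2.35, 10.9 ± 2.11, 16.3 ± 3.07 and 14.6 ± 2.86 CPM, and fibroblast markers to 20.1 ± 5.41, 23.0 ± 2.97, 24.3 ± 2.39 and 24.9 ± 4.91 CPM, in the same order of groups. None of these 29 markers was called with genotype at ZT8, at ZT20 or over both time points in the main edgeR fit. The fibroblast marker *Dcn* was called over both time points by limma voom (log2 fold change 0.35, adjusted p = 0.045). It was also called by edgeR with a covariate for transcript length (0.25, adjusted p = 0.047). Of the 5 fibroblast markers, 3 had a log2 fold change above 0 over both time points and 2 below. The unadjusted p was under 0.05 for 2 of them, beside 7.04% of all genes. No marker of any list was at 0 in all 24 IP libraries.

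A list of 39 further p53 targets, of which 38 were tested, gave no call with genotype. By count, 0 were called at ZT8, 0 at ZT20 and 0 over both time points by edgeR, with median log2 fold changes of 0.0037, -0.02 and -0.0070, and the unadjusted p was under 0.05 for 2, 1 and 3 of the 38, or 5.26%, 2.63% and 7.89%, beside 4.83%, 6.28% and 7.04% of all genes. The 2 at ZT8 were *Fas* (log2 fold change 1.16, unadjusted p = 0.0213 from edgeR) and *Polk* (0.63, unadjusted p = 0.0345), both higher in *ChAT-BKO*. *Fas* was at 0.32 CPM over all IP libraries. Of the 38 targets at ZT8, 20 had a log2 fold change above 0 and 18 below. With time 0 were called in controls and 0 in *ChAT-BKO*, with medians of 0.0052 and -0.0050. The most abundant of them were *Cdip1*, a p53-dependent death gene, at 318 ± 10.7 CPM at ZT8 in controls and 314 ± 18.6 CPM in *ChAT-BKO*, *Zmat3*, an RNA-binding protein gene, at 90.3 ± 6.47 and 89.7 ± 6.41 CPM, and *Tigar*, which limits glycolysis, at 74.7 ± 4.16 and 77.8 ± 3.72 CPM (SD, n = 6). Their log2 fold changes over both time points were -0.04 for *Cdip1* and 0.06 for *Tigar*. *Ddit4*, *Triap1* and *Aen*, genes for mTORC1 restraint, survival and apoptosis, were at 52.1, 48.3 and 40.9 CPM in controls and at 49.4, 45.8 and 41.7 CPM in *ChAT-BKO* at ZT8. *Gdf15* and *Eda2r*, p53 targets of stressed tissue, were at or below 0.13 CPM in the mean of every group, and a change in them was not detectable at this depth.

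Of 12 regulators of p53 none was called by edgeR in any of the 6 comparisons, and their median log2 fold change with genotype over both time points was 0.03, beside -0.0012 over all genes. They include *Usp7*, the deubiquitinase of MDM2 and p53, at 150 ± 2.98 and 148 ± 6.98 CPM at ZT8 (controls first), and *Trp53bp1*, a DNA damage response adaptor, at 119 ± 11.1 and 114 ± 7.08 CPM (SD, n = 6). *Mdm4*, a further inhibitor of p53, was at 16.8 and 18.1 CPM.

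The INK4 genes, whose proteins inhibit CDK4 and CDK6 and which include the senescence marker *Cdkn2a*, had 0 of 4 called with genotype by edgeR and a median of 0.15 over both time points. With the length covariate, each library's dependence of log2 CPM on transcript length, *Cdkn2a* was called at ZT20 (1.03, adjusted p = 0.00692) and over both time points (0.76, adjusted p = 0.00184). *Cdkn2d* was at 92.7 ± 16.6 and 88.7 ± 6.57 CPM at ZT8. *Cdkn2a* was low, at 2.24 ± 1.28 and 2.77 ± 0.689 CPM at ZT8 and at 1.85 ± 0.368 and 3.64 ± 1.38 CPM at ZT20 (SD, n = 6, controls first), with log2 fold changes of 0.32 (SE 0.29, adjusted p = 1) at ZT8, 0.89 (SE 0.24, adjusted p = 0.212) at ZT20 and 0.60 (SE 0.20, 95% interval 0.18 to 1.02, adjusted p = 0.295) over both, and was named after its values were seen.

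Among 19 cyclin, CDK, E2F and pocket protein genes, 1 was called over both time points, where 0.741% of all genes were called. This was *Ccnd1*, the cyclin D1 gene, at 0.19 on the log2 scale (SE 0.05, adjusted p = 0.0437). It was at 54.8 ± 4.23 and 63.1 ± 3.37 CPM at ZT8 and 54.5 ± 3.90 and 61.2 ± 6.41 CPM at ZT20, with adjusted p-values of 0.550 and 0.763 within the time points, and its call over both was lost when any of 19 of the 24 libraries was left out, with log2 fold changes of 0.16 to 0.20 and adjusted p-values of 0.0522 to 0.106 where it was lost. With the length covariate it was also called at ZT8 (0.22, adjusted p = 0.0232). *E2f1* was the next most abundant of the list and was not called, and the median of the 19 was 0.0086. Of 14 proliferation genes 0 were called with genotype by edgeR, with a median of 0.02. *Mki67* and *Top2a*, which mark dividing cells, were at 0.442 and 0.157 CPM in controls at ZT8 and below their level in the input, with log2 ratios of -2.61 and -3.98.

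Relatives of the members, such as other sestrin, BCL2 and GADD45 genes, gave 1 call of 14 over both time points, where 0.741% of all genes were called. Their median was -0.0100. *Ccng2*, cyclin G2, which is known as a target of FOXO rather than p53, was at 14.0 ± 1.45 and 17.4 ± 1.80 CPM at ZT8 and 17.0 ± 1.60 and 19.7 ± 1.29 CPM at ZT20 (SD, n = 6, controls first), with a log2 fold change over both time points of 0.26 (SE 0.06, adjusted p = 0.0200 from edgeR). The anti-apoptotic *Bcl2l1* was at 86.6 ± 11.0 and 88.9 ± 8.30 CPM at ZT8.

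Of 13 genes for other regulators of *Cdkn1a*, 2 were called over both time points, where 0.741% of all genes were called, and both encode clock repressors. A link of these 2 to the rise of *Cdkn1a* was not tested. The median of the 13 was 0.03. *Nr1d1*, the REV-ERBα gene, fell by 0.72 on the log2 scale at ZT8 (adjusted p = 4.92e-05 from edgeR), from 48.4 ± 5.12 to 29.4 ± 2.40 CPM, and had a log2 fold change of -0.50 at ZT20 (adjusted p = 0.140, and 0.0322 with DESeq2). *Nr1d2*, the REV-ERBβ gene, fell by 1.11 at ZT8 (adjusted p = 4.95e-09) and by 1.35 at ZT20 (adjusted p = 9.3e-09), to 19.6 ± 1.60 and 17.9 ± 2.37 CPM. *Foxo3*, the most abundant of this list, was at 45.1 ± 2.36 and 48.2 ± 2.89 CPM at ZT8 and was not called.

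Of 10 axon injury genes, which mark the response of motor neurons to axon damage, 1 was called with genotype at ZT20, where 0.23% of all genes were called. This was *Sprr1a*, a regeneration-associated gene. The *ChAT-BKO* libraries there held 4.80 ± 2.11 CPM and the controls 1.01 ± 0.378 CPM (SD, n = 6), which gave 2.19 on the log2 scale (SE 0.28, adjusted p = 0.000326), and controls and *ChAT-BKO* held 3.83 ± 3.79 and 1.59 ± 0.662 CPM at ZT8, with a log2 fold change of -1.14 (adjusted p = 1). In *ChAT-BKO* it was also called with time, at 1.54 (adjusted p = 0.0289). That call was lost when any of 6 libraries was left out, and with all 24 libraries in the fit (adjusted p = 0.151). With the length covariate *Sprr1a* was the 1 gene called for the difference of effects (3.33, adjusted p = 0.00953). Muscle marker sums were also higher in *ChAT-BKO* at ZT20, with medians of 58.4 and 8.90 CPM in *ChAT-BKO* and controls, and their part in the *Sprr1a* levels was not tested. The most abundant of the list, *Ecel1*, *Jun* and *Gap43*, were not called with genotype or time by edgeR, though with the length covariate *Ecel1* was called at ZT8 (-0.20, adjusted p = 0.00613), and over both time points the median of the 10 was 0.04.

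**Figure D4:**
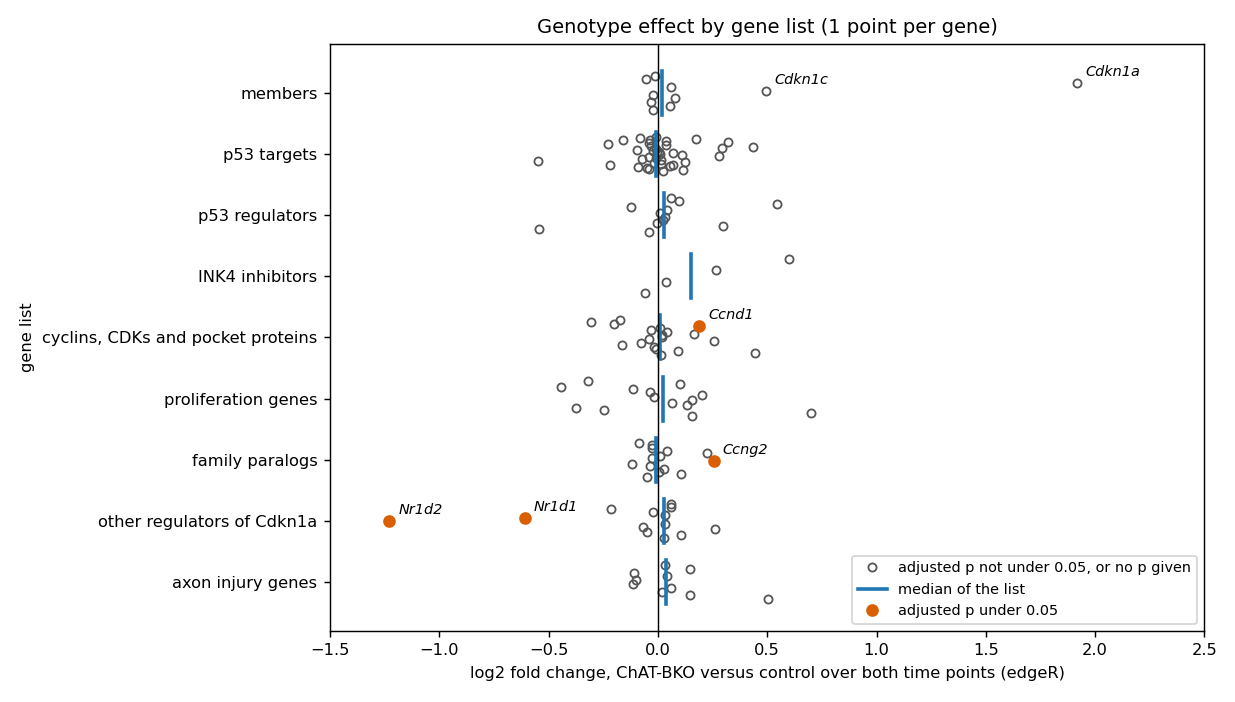
Log2 fold change of *ChAT-BKO* over control over both time points, 1 point per gene, by list, with a bar at each list's median. *Cdkn1a* at 1.91 lies apart from the p53 targets, whose median is -0.0070 and whose highest value is 0.44, and the filled points are *Ccnd1*, *Ccng2*, *Nr1d1* and *Nr1d2*.

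The 24 libraries were also searched for genes whose log2 CPM followed *Cdkn1a*, among 13720 others with a mean of at least 1 CPM. Pearson's r was highest for *Scd3* (0.935), a stearoyl-CoA desaturase gene, *Nfil3* (0.928), which encodes a repressor at D-boxes, *Gm32432* (0.913), *Elovl7* (0.905), a fatty acid elongase gene, and *Cry1* (0.897), a clock repressor. It was lowest for *Rps15a-ps7* (-0.902), *Arntl* (-0.893), *Rps13-ps1* (-0.893), *Nr1d2* (-0.891) and *Ciart* (-0.880), the clock repressor CHRONO. These points share the genotype contrast, and after the mean of each group was removed r was 0.432 for *Scd3*, 0.027 for *Nfil3*, 0.537 for *Gm32432*, 0.359 for *Elovl7* and -0.318 for *Cry1*. *Cry1* was at 3.81, 16.4, 3.94 and 17.65 CPM in controls and *ChAT-BKO* at ZT8 and then at ZT20, with close means at the time points of each genotype. Of the members *Cdkn1c* ranked 356th with r = 0.479 (0.0739 with group means removed), *Mdm2* 629th with 0.412 (0.270), and the other 7 had r between -0.165 and 0.241.

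**Figure D5:**
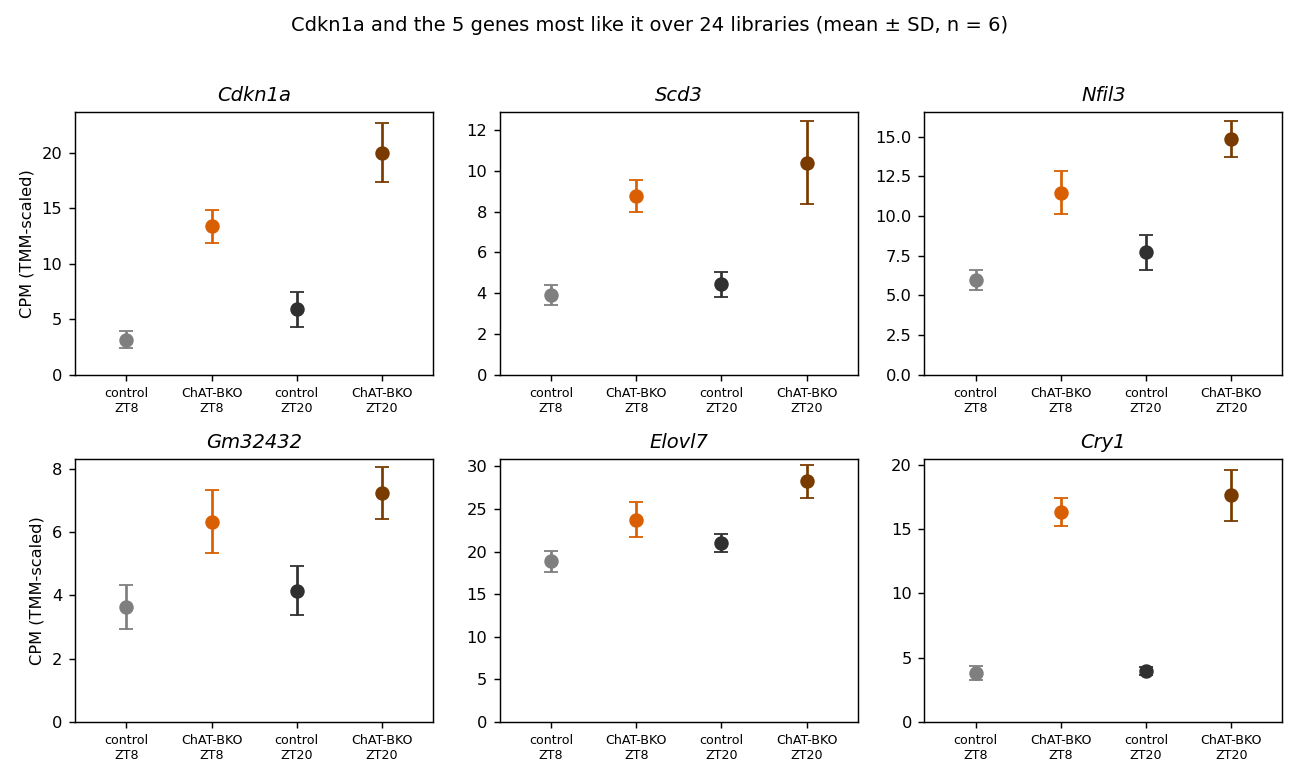
Mean ± SD (n = 6) of CPM in the 4 groups for *Cdkn1a* and the 5 genes most like it, each panel starting at 0. All 6 are higher in *ChAT-BKO* at both time points, *Cdkn1a* from 3.15 to 13.4 CPM and *Cry1* from 3.81 to 16.4 CPM at ZT8. The 5 were picked by correlation with *Cdkn1a* over these same libraries, so nothing is read from the shared direction. The means of all 6 are also higher at ZT20 than at ZT8 in each genotype. For *Cry1* in controls this is within the spread, at 3.81 ± 0.54 and 3.94 ± 0.34 CPM.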

How the data were processed

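Ribosome-bound mRNA from spinal cord cholinergic neurons was sequenced in 24 IP libraries (6 per group) and 1 pooled input, each IP from the cord of 1 mouse. The values are expected counts per gene as deposited by the authors, who aligned reads to mm10 with STAR 2.7.5 and estimated counts with RSEM. They were not normalized, 6.11% were not whole, and counts were rounded. Total counts were 4.04 to 31.7 M per library, and precision for low genes such as *Cdkn1c* is limited by counts.

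The fit took genes whose IP counts summed to 10 or more and was made in R 4.3.3 with edgeR 4.0.16 (TMM, quasi-likelihood F test), and two-sided p-values were adjusted by Benjamini-Hochberg over all 21738 genes, called under 0.05. Genotype effects at each time point and time effects in each genotype used 12 libraries, and the effect over both time points and the difference of effects used 24. The SE came from the F statistic, and log2 CPM had a prior count of 2. The fits were tested on simulated data. Groups came from the sample labels. Alternatives were DESeq2 1.42.0, its size factors in edgeR, no filter, filterByExpr, the replicate number as a block, limma 3.58.1 voom with quality weights, all 24 libraries, each library left out and TMM with the input. A covariate for the dependence of log2 CPM on transcript length in a library was added after seeing the data. Positions are from GENCODE on GRCm38, the same assembly as mm10, and per-kb levels use the union of exons.

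Members and lists were chosen with earlier results of these data known. Genes named are the members, list genes called in any comparison, examples from the most abundant genes of the lists, the 5 most and least like *Cdkn1a*, and *Bmal1*. *Mdm4*, *Cdkn2a*, *Dcn*, *Fas*, *Polk*, *Gdf15*, *Eda2r*, *Mki67* and *Top2a* were named after their values were seen. 1 gene of the list of other regulators of *Cdkn1a* is not reported here.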

Additional observations from a re-analysis of the deposited data

Results flagged for a closer look

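Among the 40 groups of 6 libraries formed by the 10 genes, 3 held a library far from the others by Dixon's criterion, and chance alone flags about 1 in 20 groups. *Cdkn1b* in *ChAT-BKO* at ZT8 was at 6.12 CPM in replicate 5, from 25 counts, while the other 5 libraries lay between 11.5 and 14.0 CPM. That library is the shallowest, at 4.04 M counts. *Mdm2* in controls at ZT8 was at 18.0 CPM in replicate 2, with the others between 21.3 and 23.0 CPM. *Phlda3* in controls at ZT20 was at 174.7 CPM in replicate 2, with the others between 127 and 142 CPM. Without any of these libraries, none of the 3 genes was called with genotype by edgeR.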

How the results depend on the processing

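Of 1718 alternative values, 1575 were counted as unchanged. For tested fold changes this meant the same direction and side of the threshold. For numbers called it meant a number near the main one, and for the genotype effect of *Cdkn1a* a shift below its spread between libraries. *Cdkn1a* stayed between 2.00 and 2.18 at ZT8 and above its control level in every alternative, and no other member was called in any. Numbers of genes called depended on the setting. They moved from 40 to 70 with DESeq2, 69 with the replicate block and 165 with the length covariate at ZT8, from 50 to 91 with DESeq2 and 167 with the length covariate at ZT20, from 161 to 405 with the length covariate over both time points, and from 0 to 1 with it for the difference of effects. With time they moved in controls from 25 to 127 (DESeq2), 86 (replicate block) and 372 (length covariate), and in *ChAT-BKO* from 62 to 225 (DESeq2), 140 (all 24 libraries) and 484 (length covariate). The cause was not tested.

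The time effect of *Cdkn1a* in controls passed the threshold with DESeq2 (0.888), the replicate block (0.888), all 24 libraries (0.877) and the length covariate (0.880), where 1 member was called in place of 0. It did not pass with the DESeq2 size factors in edgeR, no filter, filterByExpr or voom.

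With single libraries left out, genes called ranged from 19 to 42 at ZT8, 29 to 69 at ZT20, 11 to 28 with time in controls and 33 to 56 with time in *ChAT-BKO*. Members called ranged from 0 to 1 in both time contrasts, with *Cdkn1a* between 0.78 and 1.01 in controls and between 0.50 and 0.61 in *ChAT-BKO*.

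Reversals were all in members that were not called, and 75 of 91 came from leaving out 1 library. By other settings, *Trp53* at ZT8 was 0.0033 with the replicate block and 0.010 with voom, and *Phlda3* at ZT8 was -0.0025 with DESeq2, -0.00067 with its size factors, -0.00096 with no filter, -0.0012 with filterByExpr and -0.0011 with all 24 libraries. With the length covariate *Bax* was 0.045 at ZT20, and over both time points *Bax* was 0.049, *Gadd45a* 0.052 and *Phlda3* 0.027. With voom the difference of effects of *Cdkn1c* was -0.023, and time effects in controls were 0.040 for *Cdkn1b*, 0.0092 for *Trp53* and 0.015 for *Bax*, which was 0.012 with the replicate block. Scaling by TMM with the input gave log2 ratios of -1.33 for *Cdkn1a*, -1.44 for *Cdkn1b*, -0.20 for *Trp53*, -0.28 for *Mdm2*, -1.30 for *Ccng1*, 0.60 for *Bax*, 1.02 for *Gadd45a*, -0.023 for *Sesn1* and 0.84 for *Phlda3*. By Spearman's rho 3 of the 5 genes least like *Cdkn1a* were shared.

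With 1 library left out, log2 fold changes that changed sign ran at ZT8 for *Trp53* from -0.036 to 0.033, *Ccng1* from -0.067 to 0.014, *Bax* from -0.039 to 0.13 and *Phlda3* from -0.059 to 0.085. They ran at ZT20 for *Cdkn1b* from -0.011 to 0.089, *Bax* from -0.14 to 0.0088 and *Sesn1* from -0.042 to 0.00047. They ran over both time points for *Bax* from -0.051 to 0.026, *Gadd45a* from -0.068 to 0.027 and *Phlda3* from -0.064 to 0.0041. They ran for the difference of effects for *Cdkn1b* from -0.13 to 0.021, *Cdkn1c* from -0.12 to 0.22, *Trp53* from -0.092 to 0.010, *Mdm2* from -0.11 to 0.016, *Ccng1* from -0.073 to 0.026 and *Phlda3* from -0.16 to 0.011. They ran with time in controls for *Cdkn1b* from -0.059 to 0.061, *Trp53* from -0.038 to 0.021, *Bax* from -0.061 to 0.090 and *Gadd45a* from -0.054 to 0.12. They ran with time in *ChAT-BKO* for *Cdkn1c* from -0.020 to 0.32, *Mdm2* from -0.0015 to 0.12 and *Phlda3* from -0.051 to 0.063.

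Same-numbered libraries had correlations of their deviations from the group means that ran from -0.535 to 0.575. The labels call the numbers biological replicates and say no more, and whether same-numbered libraries share a batch was not tested. The block changed no call of a member other than that of *Cdkn1a* with time in controls.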
